A study of Mus musculus with 12 samples.

Results

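The genes described are 40 cell cycle genes, chosen by name: 22 that act in or mark the G2 phase and mitosis (G2/M members) and 18 others, nearly all of which act in or mark DNA synthesis (S members). All 40 were found among the 27457 gene rows of a single-cell RNA-seq count matrix that held 93126 cells from tumors grown in mice. Hosts were female mice, 8 to 12 weeks old, of C57BL/6J (B6) or of F1 crosses of C57BL/6J with Collaborative Cross strains, which are recombinant inbred lines. MC38, a mouse colon carcinoma line, was implanted under the skin. At a tumor size of 75 to 110 mm3 the mice were given 200 µg of an isotype control (2A3) or of aPD1, an antibody (29F.1A12) against the checkpoint receptor PD-1, once. Tumors were taken 48 hours later, frozen, and sorted to 90% CD45+ and 10% CD45- cells. Each of 12 libraries pooled 4 hashtagged specimens, an isotype and an aPD1 tumor of each of 2 host strains, which gave 48 tumors. The crosses with CC001, CC002 and CC075 are called responder strains in the study (10 isotype and 10 aPD1 tumors), and those with CC036, CC079 and CC080 non-responder strains (9 and 9). B6 and the cross with CC007 have no class here (5 and 5 tumors). A tumor is taken as the replicate throughout, although the response class is a property of the strain. A single tumor cell line was used. Isotype and aPD1 specimens always carried different hashtags, so that hashtag and treatment cannot be told apart.

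A dividing cell first licenses and copies its DNA and then separates the copies. The MCM helicase genes (Mcm2 to Mcm7), Cdc6, Cdc45 and Gins2 load and start the replication fork. Pcna is the sliding clamp of the DNA polymerases, and Rrm1, Rrm2, Tyms, Tk1 and Dut supply nucleotides. Cdk1 with the cyclins Ccna2, Ccnb1 and Ccnb2 drives entry into mitosis, Aurka, Aurkb, Plk1, Bub1 and Bub1b are mitotic kinases or spindle checkpoint proteins, and Ube2c and Cdc20 act with the anaphase-promoting complex that ends mitosis. Mki67 and Top2a are the usual markers of proliferating cells. T cells divide after they meet antigen, and some tissue macrophages divide in place.

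Promoters of the members were searched for letters known from cell cycle genes, and 6 promoters are printed to show where these letters stand, 3 of G2/M members and 3 of S members. Of the 40 members, 33 matched an entry of a RefSeq promoter table (GRCm38.p6, 250 bases before to 50 bases after the gene start). Ccna2, Aurkb, Tpx2, Mcm4, Gins2, Stmn1 and Ccne2 did not match. Capitals mark 3 motifs, searched on both strands: the cell cycle homology region (CHR, TTTGAA or TTTAAA), the CCAAT box (ATTGG on the other strand), and E2F letters (TTCCCGC or TTGGCGC, and also TTCGCGC or TTGCCGC). The letters of ATTGG can overlap those of TTGGCGC. On the other strand TTTGAA reads TTCAAA. Each line is the 150 bases just before the start, 5′ to 3′ on the strand of the gene.
Top2a (DNA topoisomerase II alpha, chr11:99024190-99024339, minus strand): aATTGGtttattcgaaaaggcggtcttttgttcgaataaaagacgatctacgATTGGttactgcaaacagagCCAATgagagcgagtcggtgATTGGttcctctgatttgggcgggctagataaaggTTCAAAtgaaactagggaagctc
Ube2c (ubiquitin-conjugating enzyme of the anaphase-promoting complex, chr2:164769779-164769928, plus strand): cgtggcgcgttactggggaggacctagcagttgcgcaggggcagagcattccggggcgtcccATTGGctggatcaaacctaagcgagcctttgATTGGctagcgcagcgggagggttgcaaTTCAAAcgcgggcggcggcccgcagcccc
Cdk1 (mitotic kinase, chr10:69352913-69353062, minus strand): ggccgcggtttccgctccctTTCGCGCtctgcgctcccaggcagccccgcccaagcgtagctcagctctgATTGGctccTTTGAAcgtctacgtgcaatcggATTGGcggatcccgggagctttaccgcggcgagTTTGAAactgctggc
Mcm6 (replicative helicase subunit, chr1:128359706-128359855, minus strand): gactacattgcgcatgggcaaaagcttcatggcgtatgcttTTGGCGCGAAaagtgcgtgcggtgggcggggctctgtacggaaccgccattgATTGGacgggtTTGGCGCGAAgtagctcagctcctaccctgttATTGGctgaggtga
Rrm1 (ribonucleotide reductase subunit, chr7:102441545-102441694, plus strand): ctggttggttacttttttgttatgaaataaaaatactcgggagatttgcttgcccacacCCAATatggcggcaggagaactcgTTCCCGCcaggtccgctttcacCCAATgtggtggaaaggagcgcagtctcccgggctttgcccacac
Mcm3 (replicative helicase subunit, chr1:20820313-20820462, minus strand): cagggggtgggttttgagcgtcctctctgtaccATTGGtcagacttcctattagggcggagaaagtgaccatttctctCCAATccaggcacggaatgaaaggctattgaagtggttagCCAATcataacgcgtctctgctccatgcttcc

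A CHR stood in 17 of 19 matched G2/M promoters (89.5%) and in 5 of 14 matched S promoters (35.7%), beside 27.8% of the promoters of 27025 genes. A CCAAT box stood in 89.5% of the G2/M promoters, in 71.4% of the S promoters and in 37.9% of all. The E2F letters went the other way, with 21.1% of the G2/M promoters, 57.1% of the S promoters and 9.69% of all. A CHR together with a CCAAT box was found in 84.2%, 28.6% and 10.9%. Top2a, Ube2c and Cdk1 show both in the printed stretch, and Cdk1 also shows E2F letters there. Mcm6 shows E2F letters and CCAAT boxes but no CHR. Mcm3 shows CCAAT boxes in the printed stretch, and its 3 E2F matches lie beyond it, in the 50 bases after the start. The shares are a description of letters, with no test of the difference between G2/M and S promoters, and no match says only that these letters are not in this window.

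Libraries had 93126 cells with a median of 3333.5 unique molecular identifiers (UMIs, counted RNA molecules), and tumors held 53 to 3082 cells and 88816 to 17713491 UMIs. The 12 library numbers form 4 runs of 3 consecutive numbers, with the widest gap between pools 6 and 7, and pools 1 to 6 and 7 to 12 had median depths of 3095 and 3665 UMIs per cell. Barcode sequences recurred between libraries: 4990 were seen in more than 1 library, on 10176 cells. The 27 deposited clusters were named from fixed markers: 10 were macrophage-like (68059 cells) and 9 T/NK-like (12021 cells), called macrophages and T/NK cells from here on. Macrophage cluster 5 had the antibody genes Ighg2c and Igkc and the globin genes Hbb-bs and Hba-a1 among its 10 leading genes, so counts without it are given. T/NK cluster 12 was also led by globin genes (Hbb-bs, Hba-a1 and Hba-a2). None of the 10 macrophage or 9 T/NK clusters had a marker of its own list among its 10 leading genes, and their names rest on the level of the markers. Clusters 20 and 25 stayed unnamed. One tumor, of CC007, had only 30 macrophages, and 2 CC080 tumors carry the same animal identifier. Doublets were not called.

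A cell was called G2/M-positive or S-positive if it had UMIs of at least 2 different G2/M or S members after each cell was thinned to 1000 UMIs. Thinning left out 7883 cells (8.46%) of lower depth, between 5.92% and 8.62% in the 4 groups of responder and non-responder tumors. The loss was uneven over clusters, with 376 of 529 cells left out in cluster 16 and 17 of 2338 in cluster 17. Of T/NK cells 9716 of 12021 were kept, and of macrophages 63780 of 68059. Before thinning, the kept G2/M-positive cells were deeper, with a median of 5917 UMIs against 3501 in the other kept cells. In T/NK cluster 8, where 649 of 2206 cells were left out, these medians were 7557.5 and 1689. The part of depth or of doublets in the shares was not tested. Shares are of thinned cells, with exact (Clopper-Pearson) 95% binomial intervals, which cover counting error only. Of 85243 cells, 8014 (9.40%, interval 9.21 to 9.60%) were G2/M-positive and 9702 (11.4%) S-positive, and 3370 were both.

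The share of positive cells was highest in 2 clusters. In macrophage cluster 17, 1926 of 2321 cells were G2/M-positive (82.98%, interval 81.4 to 84.5%) and 64.9% were S-positive. In T/NK cluster 1, 349 of 440 cells were G2/M-positive (79.3%, interval 75.2 to 83.01%) and 76.6% were S-positive. The leading genes of cluster 17 included the replication-dependent histone genes Hist1h1a, Hist1h1b and Hist1h2ab, which are not members, and those of cluster 1 included Cd8a and Cd8b1. These shares are descriptions, since the same cells were clustered on their expression.

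**Figure D1:**
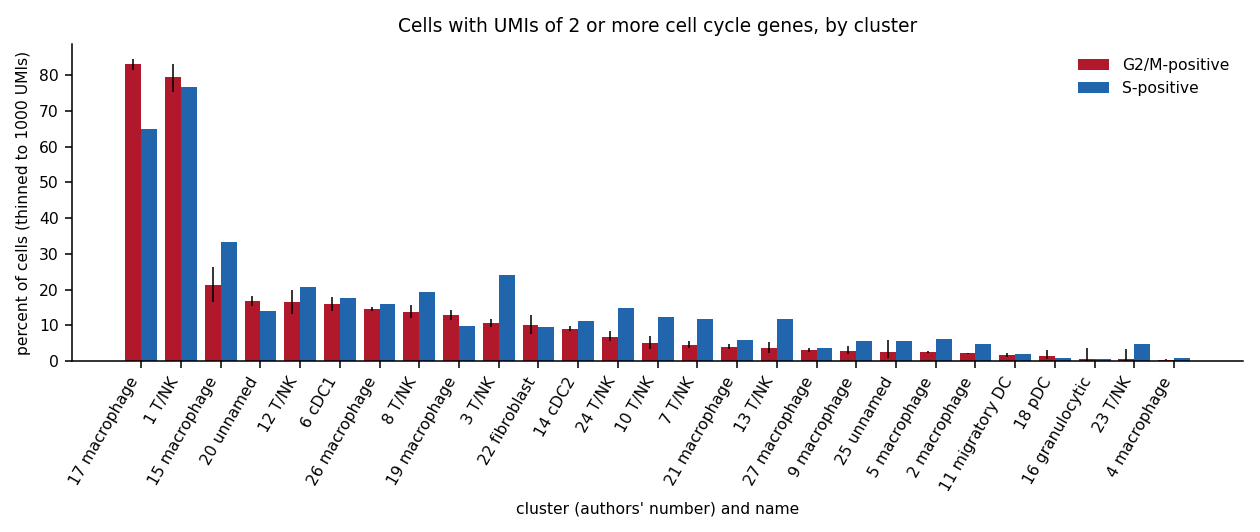
Percent of thinned cells that were G2/M-positive (red, with exact 95% binomial intervals) and S-positive (blue) in each of the 27 clusters, in falling order of the G2/M share. Clusters 17 and 1 stand at 82.98% and 79.3%, and the next, cluster 15, at 21.2%.

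Behind them came macrophage cluster 15 (21.2% G2/M-positive, 33.3% S-positive), led by the osteoclast-type genes Ctsk, Acp5 and Atp6v0d2, then the unnamed cluster 20 (16.8%), T/NK cluster 12 (16.4%), the cDC1-like cluster 6 (15.8%), macrophage cluster 26 (14.5%) and T/NK cluster 8 (13.9%), led by Foxp3. Cluster 15 also had the antibody genes Iglv2 and Iglv1 among its 10 leading genes. Its median depth was 10418 UMIs, 2.74 times that of the tumors it came from. Free RNA in droplets gives UMIs of a gene to cells that lack it. Low shares included 0.394% in macrophage cluster 4 (median depth of all its cells, before thinning, 2483.5 UMIs), 0.654% in the granulocytic cluster 16 (1 of the 153 cells that reached 1000 UMIs, interval 0.017 to 3.59%; 815 UMIs) and 1.60% in the migratory DC-like cluster 11 (3652 UMIs). The shares of clusters 16 and 11 were taken as background by choice, and free RNA was not measured. The interval of cluster 11 (1.02 to 2.39%) lay above that of cluster 4 (0.234 to 0.623%), but these intervals count cells and not tumors. Over tumors with at least 20 thinned cells of the cluster, the median share was 0 in both. The tumors ranged from 0 to 10.0% in cluster 11 (39 tumors) and from 0 to 5.0% in cluster 4 (44 tumors), and so overlapped. S-positive shares exceeded G2/M-positive shares most in T/NK cluster 3 (624 of 2600 cells against 277) and in cluster 15. By number, cluster 26 was the largest source, with 30.2% of all G2/M-positive cells, followed by cluster 17 with 24.03%, while cluster 1 held 4.35%. Cluster 26 also held 26.6% of all UMIs of G2/M members and 23.6% of those of S members, beside 23.8% and 16.6% in cluster 17.

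Levels are CPM. For clusters they are summed UMI counts scaled by the total of the cluster, and for tumors by the total of the population in that tumor times its TMM normalization factor. Each molecule is counted once at its 5′ end, so levels are not divided by gene length. Over all cells the 3 highest members were Stmn1 (178 CPM), Pcna (122 CPM) and Top2a (94.3 CPM). The 3 lowest were Cdc6 (8.15 CPM), Cdc45 (8.31 CPM) and the cyclin gene Ccne2 (10.9 CPM). Stmn1 encodes a microtubule-destabilizing protein and is counted among the S members, although it does not act in DNA synthesis. By cluster, 27 members were highest in cluster 1 and 13 in cluster 17, and 32 had these as their top pair. Of the S members, 14 of 18 were highest in cluster 1; Tk1 (241 CPM in cluster 17, 160 in cluster 1), Tyms, Gins2 and Ccne2 were highest in cluster 17. The G2/M members were divided, with 13 highest in cluster 1 and 9 in cluster 17. With equal weight for tumors of at least 20 cells of the cluster, the order of the pair moved. Then 21 members were highest in cluster 1 and 19 in cluster 17, with 15 of 22 G2/M members in the latter. Few tumors had that many cells of cluster 1: counted in thinned cells, 6 did, beside 33 for cluster 17.

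Single members separated the clusters to unequal degrees. Top2a stood at 795 CPM in cluster 1, 680 in cluster 17 and 8.59 in cluster 4. Stmn1 stood at 1167, 915 and 20.1 CPM. Pcna had a narrower range, at 398, 315 and 82.5 CPM. Dut, which hydrolyses dUTP, was high across T/NK clusters, with 640 CPM in cluster 1, 381 in cluster 8 and 343 in cluster 3, beside 219 in cluster 17. Rrm2 and Kif11, a spindle motor, were also higher in cluster 1 (279 and 241 CPM) than in cluster 17 (188 and 146 CPM), whereas Aurkb was lower (80.2 against 122 CPM).

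**Figure D2:**
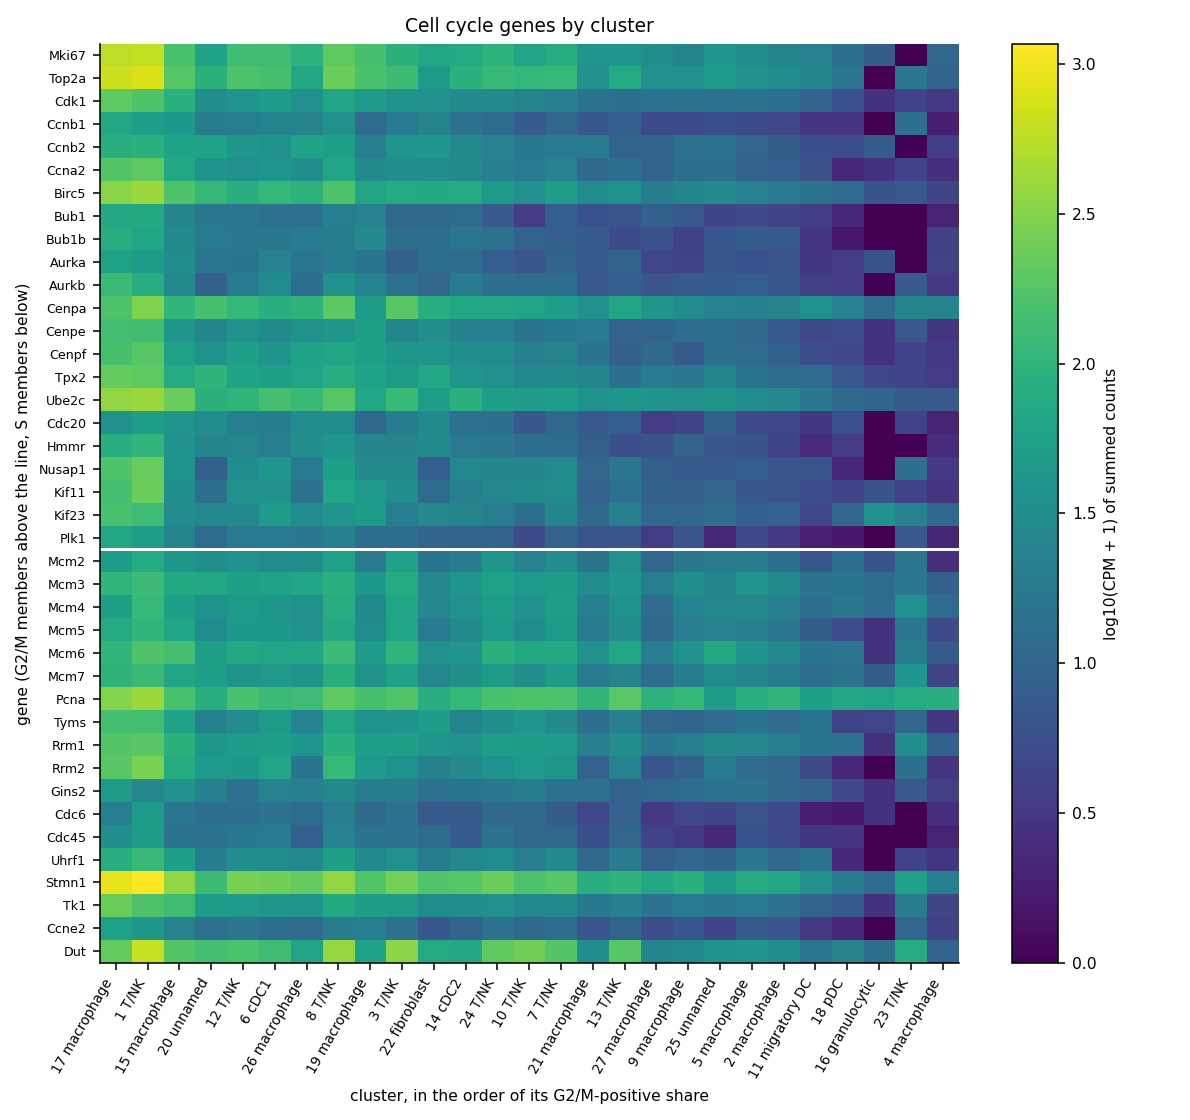
Level of each of the 40 genes in each of the 27 clusters, as log10(CPM + 1) of summed counts (color), with clusters in falling order of their G2/M-positive share and the G2/M members above the white line. The columns of clusters 17 and 1 are the brightest for most genes, and Pcna and Stmn1 stay visible in nearly every cluster.

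Outside the list, the 10 genes whose log2(CPM + 1) over the 27 clusters was most correlated with that of the summed G2/M members, among 13011 genes of at least 10 CPM in a cluster, were Nuf2 (Pearson's r = 0.981), Prc1, Sgo1, Mad2l1, Nek2, Cdca3, Kif22, Cep55, Kif18b and Kif4 (0.960). The clusters share libraries, and the values are a description.

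The question of the design was whether responder and non-responder strains, and aPD1 and isotype tumors, differed. For each population, counts were summed per tumor and fitted across all genes with edgeR's quasi-likelihood test, with Benjamini-Hochberg adjustment over all genes tested and a threshold of 0.05. In such sums, more dividing cells and more RNA per dividing cell cannot be told apart. Class belongs to the strain, 3 against 3, yet the fit takes the 38 classed tumors as independent. Its p-values between classes are therefore too small, and its calls too many, where tumors of a strain vary together. The fit also leaves out the pairing of isotype and aPD1 tumors of the same pool and strain.

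In macrophages no member was called different between responder and non-responder strains. Mki67 in responder isotype tumors ranged from 29.5 to 138 CPM (median 73.9), in responder aPD1 tumors from 13.1 to 114 (59.8), in non-responder isotype tumors from 21.9 to 160 (98.3) and in non-responder aPD1 tumors from 57.7 to 155 (99.8). The 4 groups overlapped, and the class difference was -0.35 on the log2 scale (SE 0.24, edgeR adjusted p = 0.457). Top2a had medians of 80.3, 63.8, 87.7 and 107 CPM in the same order of groups and ranged from 16.2 to 145 over them. Pcna kept to a narrower range, 78.9 to 169 CPM, with medians of 125, 109, 115 and 125. Ube2c had medians of 72.3, 63.5, 98.8 and 74.6 CPM (13.6 to 145), and its groups overlapped likewise. Mcm5 had medians of 26.6, 18.5, 28.7 and 29.7 CPM (6.72 to 40.9), and Stmn1 of 167, 145, 169 and 191 CPM (38.7 to 289). No group of these 6 genes stood apart from the others. Of 40 members, edgeR and DESeq2 called 0, and 0 had an unadjusted edgeR p under 0.05, beside 6.56% of 11873 genes called and 19.9% at the unadjusted level. The estimates lay below 0 for 40 of 40, with a median of -0.18 against 0.00 over all genes. Members vary together over tumors, so these are not 40 separate observations. The sign depended on which strains were included: without CC075, 27 members were above 0 (median 0.04), and without CC079, 21 were (median 0.03). All CC075 tumors were in pools 7 to 12, and all CC079 tumors were in pools 1 to 6. Leaving out either strain therefore also changed the balance of these pools between classes, so that strain and pools cannot be told apart here. In pools 1 to 6 alone 20 were above 0, and in pools 7 to 12 alone 0 were (median -0.47).

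The aPD1 comparisons in macrophages also called no member. In responder strains 40 of 40 estimates were negative (median -0.27, or -0.13 without CC075), and in non-responder strains 40 of 40 were positive (median 0.20). edgeR called 0.0% of 11873 genes in each, and 0 members at the unadjusted level, beside 6.91% and 0.766% of all genes. Mcm2 had the lowest responder estimate, -0.54 (SE 0.28, edgeR adjusted p = 0.728). Mki67 was lower under aPD1 in 7 of 10 responder pairs of tumors from the same pool and strain and higher in 6 of 9 non-responder pairs. The difference of both effects, tested as an interaction, had a median of -0.47 over the members, with 0 called by edgeR, 0 at the unadjusted level (5.73% of all genes), and 0.0% of all genes called. DESeq2 called 0 members in each of the 3 comparisons.

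Of the members 39 could be tested in T/NK cells, and Aurka was too low. Between classes 0 were called by edgeR or DESeq2, beside 2.23% of 7219 genes; 3 had an unadjusted edgeR p under 0.05, beside 14.5% of all genes: the centromeric histone gene Cenpa (0.38, SE 0.16, adjusted p = 0.218), Mcm6 (0.25, SE 0.11) and Mcm4 (0.25, SE 0.12). Mki67 had medians of 138, 162, 152 and 145 CPM in responder isotype, responder aPD1, non-responder isotype and non-responder aPD1 tumors, and ranged from 49.5 to 295. Top2a had medians of 174, 205, 158 and 180 CPM (39.0 to 363), Ube2c of 103, 173, 119 and 94.4 (20.8 to 273), and Mcm5 of 49.2, 58.9, 55.5 and 55.5 (10.5 to 82.0). The groups of each overlapped. Pcna (158, 173, 187 and 178 CPM, range 97.9 to 256) and Stmn1 (287, 387, 258 and 355 CPM, range 84.2 to 593) also overlapped. Over the members 34 of 39 estimates were above 0, with a median of 0.20, and of 0.02 without CC001 and 0.06 without CC036. The clusters that made up the T/NK cells differed between classes: under isotype, cluster 3 held a mean of 36.6% of them in responder strains and 14.4% in non-responder strains, and under aPD1 33.5% and 9.20%, and its part in these estimates was not tested. Without CC080 the MCM genes Mcm7 and Mcm2 were called, beside 4.31% of all genes, and without any other 1 of the 6 strains 0 were.

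Under aPD1 in responder strains, Rrm2, the regulated subunit of ribonucleotide reductase, ranged from 24.8 to 102 CPM in isotype tumors (median 47.9) and from 57.8 to 124 in aPD1 tumors (89.8). It was higher in the aPD1 tumor of 10 of 10 pairs, although the groups overlapped. The difference was 0.72 (SE 0.23, edgeR adjusted p = 1.00). Cenpa was also higher in 10 of 10 pairs, from 65.1 to 177 CPM (median 126) against 101 to 277 (185), with a difference of 0.53 (SE 0.21, adjusted p = 1.00 by edgeR). Ccnb2 was higher in 9 of 10 pairs (0.69, SE 0.32). These 3 had an unadjusted edgeR p under 0.05, beside 2.98% of all genes. They were named by that p among 39 members, and how many other genes were higher in as many pairs is not given here. After adjustment edgeR and DESeq2 called 0 members, with 0.0% of 7219 genes called. In non-responder strains Rrm2 was higher in 4 of 9 pairs, and edgeR and DESeq2 called 0 members, beside 0.0139% of all genes, with 0 at the unadjusted level by edgeR, beside 3.64%. The interaction called 0 members by edgeR and DESeq2 and 0.0% of all genes. Rrm2 had an unadjusted edgeR p under 0.05 there (1 of 39 members, beside 3.42% of all genes).

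**Figure D3:**
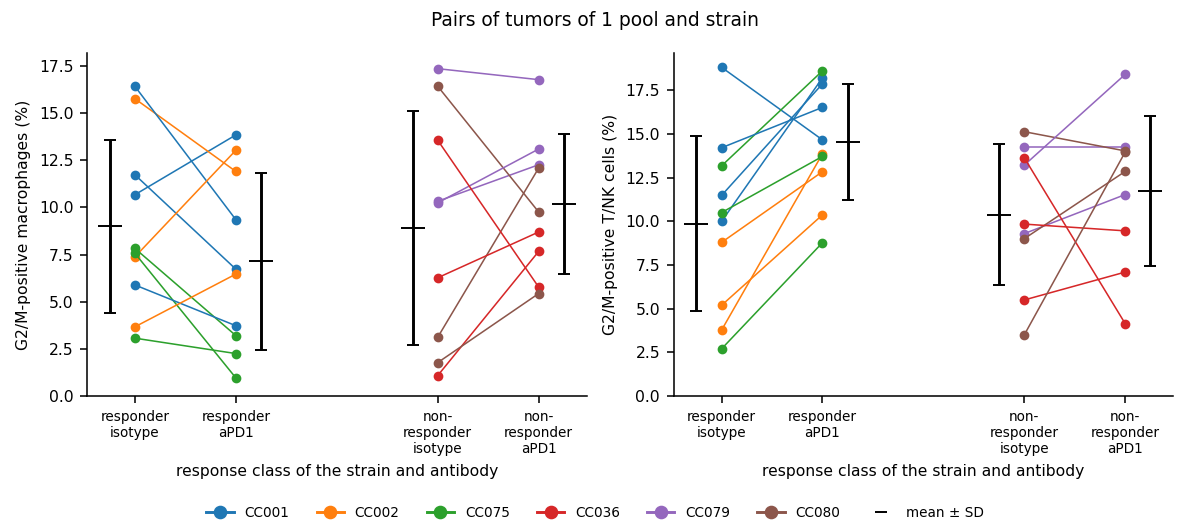
G2/M-positive share of macrophages (left) and of T/NK cells (right), in percent of thinned cells, for responder and non-responder strains under isotype and aPD1. Points are tumors, colored by strain, lines join tumors of the same pool and strain, and bars give the mean ± SD of each group; in T/NK cells of responder strains the aPD1 end is the higher in 9 of 10 lines.

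Shares of cells were also compared. Of macrophages, 8.99% ± 4.59 (SD, n = 10) were G2/M-positive in responder isotype tumors, 7.14% ± 4.68 (n = 10) in responder aPD1, 8.90% ± 6.18 (n = 9) in non-responder isotype and 10.2% ± 3.71 (n = 9) in non-responder aPD1 tumors. Of T/NK cells, 9.87% ± 5.00, 14.6% ± 3.33, 10.4% ± 4.04 and 11.8% ± 4.29 were G2/M-positive in that order of groups. SEs of the differences below are for unpaired groups. The responder difference in T/NK cells was 4.68 percentage points (SE 1.90), and the share was higher under aPD1 in 9 of 10 pairs. In non-responder strains it was 1.37 points (SE 1.96), with 5 of 9 pairs higher. Over the alternatives run, the responder difference lay between 2.54 and 7.66 points and the non-responder one between -0.14 (without CC080) and 3.62. S-positive shares of T/NK cells differed by 2.59 points in responder strains (SE 2.62, 6 of 10 pairs higher) and by 2.44 in non-responder strains (SE 2.31, 7 of 9 pairs higher). For G2/M-positive T/NK cells, responder means under aPD1 and isotype were 15.5% and 10.6% in pools 1 to 6, and 13.6% and 9.16% in pools 7 to 12. S-positive macrophages stood at 10.4% ± 5.22 (responder) and 9.81% ± 5.73 (non-responder) under isotype, and at 7.87% ± 5.12 and 12.2% ± 3.71 under aPD1. No share was tested.

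Within clusters no member was called either. In macrophage cluster 26, 7 of 40 had an unadjusted edgeR p under 0.05 between classes, beside 20.4% of 9882 genes, and Mki67 was lowest (-0.51, SE 0.18, adjusted p = 0.0741), with 7.63% of all genes called. DESeq2 called 0. In T/NK cluster 3, led by Cd8a, 0 of 28 tested members were called between classes, beside 0.465% of 4732 genes, and 9 had an unadjusted edgeR p under 0.05, beside 11.1%, led by Dut (-0.62, SE 0.19). All 9 were lower in responder strains, as were the estimates of all 14 G2/M members tested (Ube2c -1.27, SE 0.45; Mki67 -0.61, SE 0.25), whereas most estimates in all T/NK cells lay above 0. The non-responder side of this fit rested on 4 isotype and 2 aPD1 tumors with at least 20 cells of the cluster. In T/NK cluster 8, 0 of 26 were called between classes, beside 0.124% of 3233 genes, and 0 had an unadjusted edgeR p under 0.05, beside 6.93%. For aPD1 in responder strains, clusters 26, 3 and 8 each had 0 members and 0.0% of all genes called, with 0, 4 and 7 members at an unadjusted edgeR p under 0.05, beside 5.25%, 4.18% and 6.34% of all genes. Cenpa was first by p in clusters 3 (0.52, SE 0.20) and 8 (1.14, SE 0.28, edgeR adjusted p = 0.455). DESeq2 also called 0 members in clusters 3 and 8, although between classes in cluster 3 it gave some members no adjusted p. Cluster 1 had at least 20 cells in too few tumors to be fitted; with at least 10 cells per tumor, edgeR called 0 of 33 members, beside 0.124% of 2428 genes between classes and 0.0% for aPD1 in responder strains, with 2 at an unadjusted p under 0.05 in each, beside 5.35% and 4.61% of all genes. DESeq2 was not run there.

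Between host strains, the calls in macrophages depended on how pools entered the fit: without them edgeR called any difference among the 8 hosts for 32 of 40 members, and with pool as a replicate block for 1. The 32 stood beside 51.7% of 12510 genes, and 36 had an unadjusted p under 0.05, beside 59.5%. Nusap1, a spindle microtubule protein, had the smallest adjusted p (0.00211): it averaged 30.3 ± 3.27 CPM in CC079 (SD, n = 6), 21.2 ± 8.49 in CC001 (n = 8), 20.9 ± 9.87 in CC002 (n = 6), 19.1 ± 12.0 in CC080 (n = 6), 17.48 ± 7.80 in CC036 (n = 6), 11.5 ± 4.72 in B6 (n = 6), 9.33 ± 5.36 in CC075 (n = 6) and 9.26 ± 7.602 in CC007 (n = 4). The lowest CC079 tumor (26.1 CPM) lay above every tumor of B6, CC075 and CC007, whereas CC001, CC002, CC036 and CC080 had tumors that overlapped it. Cenpf, Mki67, Ube2c, Tk1, Kif23, Cdk1, Tpx2, Bub1, Gins2, Plk1, Stmn1, Aurkb, Rrm1, Ccne2, Ccnb1, Top2a, Kif11, Mcm2, Hmmr, Mcm4, Tyms, Cdc6, Ccna2, Cenpa, Mcm6, Rrm2, Bub1b, Ccnb2, Uhrf1, Cenpe and Mcm7 were the others called. All 6 CC079 tumors were in pools 1 to 6, and all CC075 and CC036 tumors were in pools 7 to 12. With pool as a replicate block 1 member was called (Bub1), beside 13.0% of all genes, and with the set of pools as a term 4 were called (Bub1, Nusap1, Ccne2 and Kif23), beside 29.4%. Within pools 1 to 6 alone 2 were called by edgeR (17.9% of all genes), and within pools 7 to 12 alone 0 (6.45%), with 2 at the unadjusted level (19.6%). DESeq2 was not run within sets of pools. Without cluster 5, 29 of 40 were called, beside 50.8% of all genes.

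Among hosts, edgeR called 5 of 40 members in T/NK cells (Mcm7, Stmn1, Tk1, Mcm2 and Pcna), beside 25.3% of 8458 genes, and 10 had an unadjusted p under 0.05, beside 37.7%. Mcm7 averaged 72.9 ± 14.6 CPM in CC001 (SD, n = 8) and 33.9 ± 13.8 in CC036 (n = 6). With pool as a replicate block 2 were called (Cenpa and Mcm2), beside 7.44% of all genes, and with the set of pools as a term 1 was called (Mcm7), beside 9.69%. Leaving out pool 9 gave 0 calls by edgeR (15.1% of all genes), with 4 at the unadjusted level (29.9%), and leaving out pool 6 gave 23 (32.4%).

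The sets of pools were therefore compared directly, with strain and treatment as terms. This comparison was added after the values per pool had been seen, and it uses the widest gap between library numbers; the study names processing date as a source of variation, and the dates of these pools are not given in the sources used here. In macrophages 27 of 40 members were lower in pools 7 to 12 and 0 were higher, beside 10.0% of 12510 genes called in either direction and 4.52% called lower. At an unadjusted p under 0.05 there were 38, beside 24.1%. This fit treats the 48 tumors as independent, although the sets differ between pools, 6 against 6, and the 4 tumors of a pool share a library, so that its p-values are too small where tumors of a pool vary together. With pool as a random replicate block in limma (correlation within pools 0.148) 12 members were lower: Nusap1, Ccne2, Bub1, Ccnb1, Kif23, Bub1b, Aurkb, Rrm2, Cdc6, Cenpe, Ube2c and Aurka, beside 5.29% of all genes, and 36 had an unadjusted p under 0.05, beside 19.8%. With counts summed per pool and no strain term, edgeR called 39, beside 2055 of 13677 genes (15%). Cluster 17, the one with the highest G2/M-positive share, made up 4.51% ± 2.15 (n = 24) of macrophages in pools 1 to 6 and 1.95% ± 1.31 (n = 24) in pools 7 to 12, and without its cells 25 members were lower, beside 8.55% of all genes. The differences that follow are from the fit over tumors, with strain as a term. Medians, ranges and cluster shares of the sets, here and below, are of all their tumors without regard to strain. CC079 stood only in pools 1 to 6, and CC075 and CC036 only in pools 7 to 12. Those values therefore mix strain with set of pools. Nusap1 ranged in pools 1 to 6 from 0 to 35.6 CPM (median 25.8, 24 tumors) and in pools 7 to 12 from 2.67 to 29.1 (10.4, 24 tumors). The value of 0 came from the smallest tumor, with 30 macrophages. The ranges overlapped, and the difference was -1.09 on the log2 scale (SE 0.21, edgeR adjusted p = 0.00079). Ccne2 fell by 1.07 on that scale (SE 0.20, adjusted p = 0.000605 by edgeR). Mki67 had medians of 105 CPM (26.7 to 160) and 50.9 CPM (13.1 to 112), Top2a of 108 (0 to 145) and 47.8 (16.2 to 126), and Ube2c of 99.2 (16.4 to 145) and 42.7 (13.6 to 107), in pools 1 to 6 and 7 to 12. Stmn1 had medians of 203 CPM (65.5 to 289) and 104 CPM (38.7 to 209). The medians of these 4 genes were lower in pools 7 to 12 than in pools 1 to 6, and the ranges overlapped. Kif23, Bub1, Cenpe, Bub1b, Hmmr, Cenpf, Ube2c, Tpx2, Cdc6, Aurkb, Top2a, Ccna2, Uhrf1, Plk1, Aurka, Rrm2, Kif11, Ccnb1, Cdk1, Mcm7, Cenpa, Cdc20, Mki67, Stmn1 and Dut were the others. The median over the members was -0.77, against 0.00 over all genes. Without cluster 5, 30 were called, beside 11.4% of all genes.

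Of the 22 G2/M members 20 were called in the fit over tumors, the exceptions being Ccnb2 and Birc5, and of the 18 S members 7 were called. With pool as a random replicate block the counts were 9 and 3, and with counts summed per pool 22 and 17, where only Pcna was not called. Pcna had medians of 116 CPM in pools 1 to 6 and 119.7 in pools 7 to 12 (difference 0.0024, SE 0.099). Mcm5 had medians of 28.9 and 18.1 CPM and a difference of -0.47 (SE 0.20, edgeR adjusted p = 0.128). The difference between the phases was not tested.

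**Figure D4:**
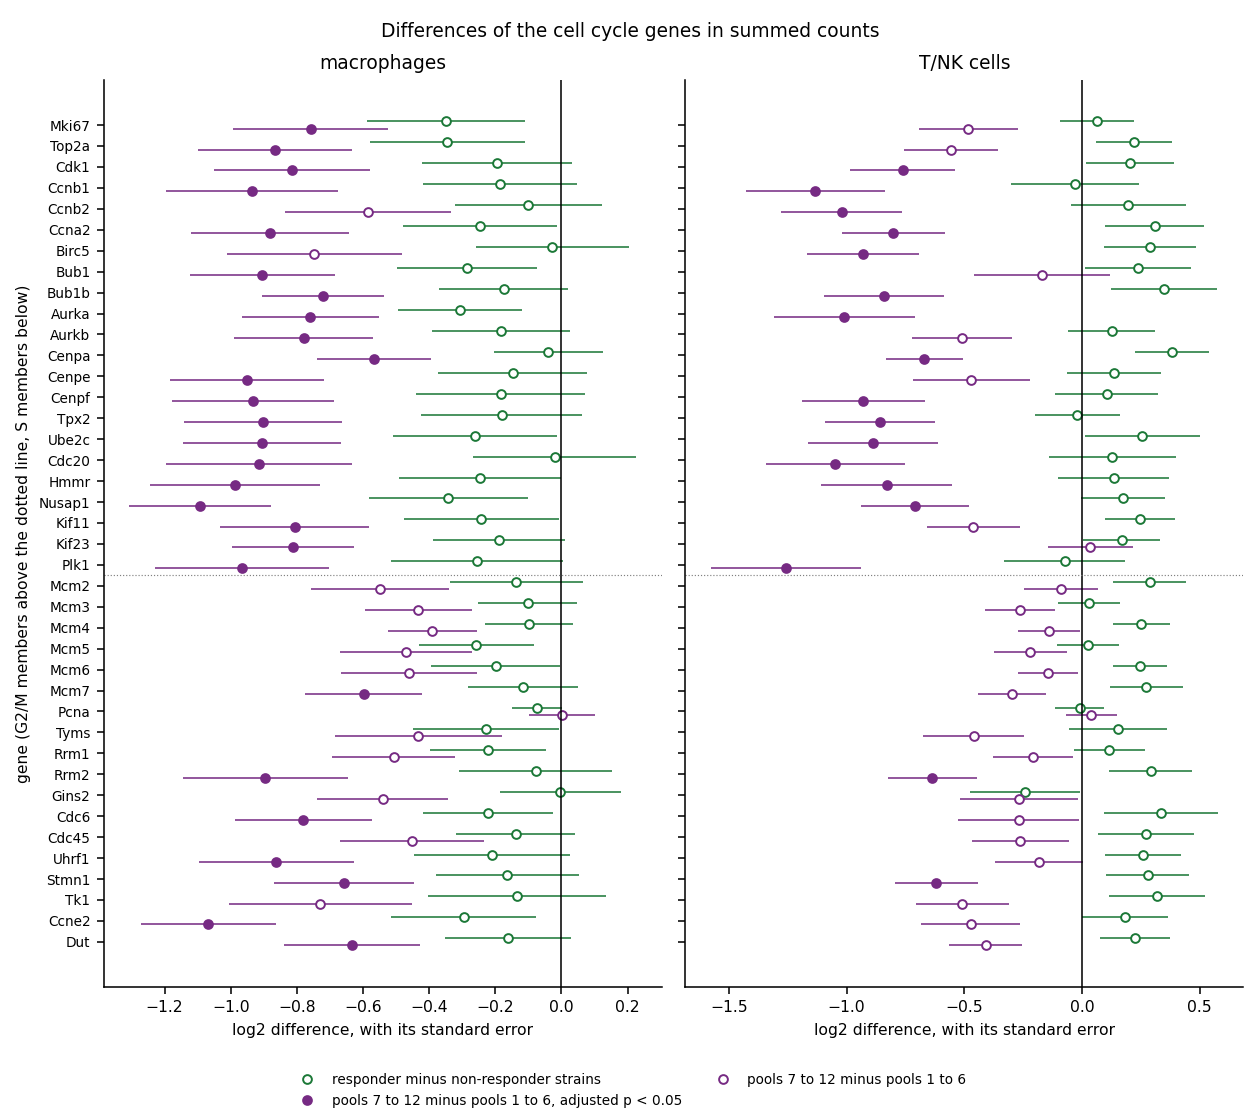
Log2 difference of each of the 40 genes, with its standard error, between responder and non-responder strains (green) and between pools 7 to 12 and pools 1 to 6 (purple), in macrophages (left) and T/NK cells (right). Filled points have an edgeR adjusted p under 0.05; they are 27 purple points on the left and 17 on the right, and no green point is filled.

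In T/NK cells 17 of 40 members were lower in pools 7 to 12 and 0 were higher, beside 12.8% of 8458 genes called and 6.55% called lower, and 26 had an unadjusted p under 0.05, beside 27.5%. With pool as a random replicate block in limma (correlation within pools 0.138) 16 were lower, beside 11.7% of all genes, and with counts summed per pool 11, beside 13.3%. The Foxp3 cluster 8 made up 28.2% ± 14.4 (n = 23) of T/NK cells in pools 1 to 6 and 9.61% ± 6.06 (n = 24) in pools 7 to 12. Without its cells 24 members were lower, beside 14.2% of all genes, and 29 had an unadjusted p under 0.05, beside 28.8%. The 17 were Cenpa (-0.67, SE 0.16, edgeR adjusted p = 0.00658), Ccnb2, Plk1 (-1.26, SE 0.32), Birc5, Ccnb1, Ccna2, Tpx2, Cdc20, Cenpf, Stmn1, Cdk1, Rrm2, Aurka, Bub1b, Ube2c, Nusap1 and Hmmr. Plk1 ranged from 0 to 34.9 CPM (median 19.99, 23 tumors) in pools 1 to 6 and from 0 to 22.1 (9.82, 24 tumors) in pools 7 to 12. Mki67 was not called (-0.48, SE 0.21, edgeR adjusted p = 0.121), with medians of 154 and 126 CPM, nor was Top2a (-0.56, SE 0.20, edgeR adjusted p = 0.0568), with 213 and 161 CPM. The median over the members was -0.50. Without pool 6, whose median G2/M-positive share of T/NK cells was the highest of the 12 at 22.6%, edgeR called 0 (2.58% of all genes), with 2 at the unadjusted level (17.5%), 14 of 40 estimates above 0 and a median of -0.12. Without pool 7, the lowest at 4.55%, 4 were called (11.9% of all genes), and without pool 8 there were 6 (5.42%). In macrophages, leaving out pool 12, 3 or 11 left 0, 5 or 11 edgeR calls, beside 1.37%, 4.59% or 5.01% of all genes, and without pool 12 there were 14 at the unadjusted level, beside 14.6%. DESeq2 was not run without single pools. In macrophages 18 were called without the 2 CC080 tumors of the same animal identifier, beside 6.73% of all genes.

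**Figure D5:**
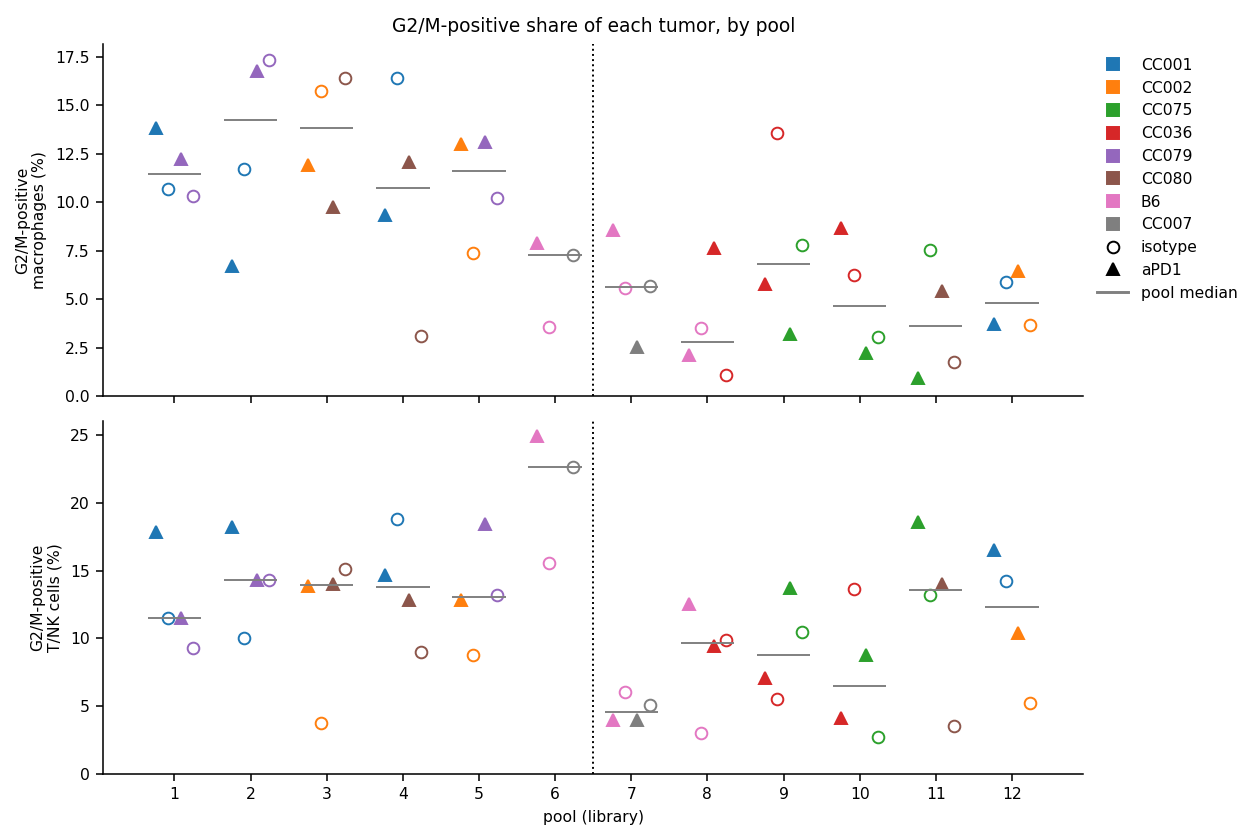
G2/M-positive share of macrophages (top) and T/NK cells (bottom), in percent of thinned cells, for each tumor, by pool. Colors give the host strain, open circles isotype and triangles aPD1, grey lines the pool median, and the dotted line separates pools 6 and 7; medians for macrophages run from 7.28 to 14.2% on its left and from 2.82 to 6.80% on its right.

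Shares of cells were set beside these fits, without a test. G2/M-positive macrophages made up 11.2% ± 4.00 (SD, n = 23) of macrophages in pools 1 to 6 and 5.12% ± 2.97 (n = 24) in pools 7 to 12. In macrophages the means of the 4 crosses present in both sets were lower in the later pools: CC001 at 11.5% ± 3.40 (n = 6) and 4.81% ± 1.53 (n = 2), CC002 at 12.0% ± 3.49 (n = 4) and 5.07% ± 1.98 (n = 2), CC080 at 10.3% ± 5.55 (n = 4) and 3.60% ± 2.59 (n = 2), and CC007 at 7.28% (n = 1) and 4.10% ± 2.21 (n = 2). The host B6 stood at 5.73% ± 3.08 (n = 2) and 4.95% ± 2.80 (n = 4). G2/M-positive T/NK cells made up 14.2% ± 4.69 (n = 23) and 8.99% ± 4.73 (n = 24) of T/NK cells, and S-positive ones 21.6% ± 6.49 and 17.9% ± 6.41. CC001 did not go that way, with 15.2% ± 3.76 (n = 6) and 15.4% ± 1.64 (n = 2) G2/M-positive and 22.6% ± 4.84 and 28.0% ± 7.08 S-positive T/NK cells. Across the 47 tumors the shares of G2/M-positive macrophages and T/NK cells had a Pearson's r of 0.243, and within the sets of pools r was -0.089 and -0.168. Tumors share libraries, and these values are a description.

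Other cell cycle genes, from lists of genes outside the 40, were counted in the same fits over tumors, and not in those with pool as a random replicate block. In the comparison of pools in macrophages, where 10.0% of all genes were called and 4.52% called lower, 29 of 32 other G2/M genes were called, all lower, among them Ttk, a spindle checkpoint kinase (-1.08, SE 0.22), Tmpo, Hjurp and Gtse1. Of 30 other S genes 15 were called, all lower, led by Wdr76 (-0.71, SE 0.13), Prim1, a subunit of DNA primase (-1.01, SE 0.20), and Brip1. Of 21 G1 cyclin, kinase and E2F/Rb genes 7 were lower, among them Lin9 and Rbl1, and Lin54 was higher (0.66, SE 0.13). Lin9 and Lin54 encode subunits of the MuvB complex, which binds CHR letters. Of 7 genes for inhibitors of cyclin-dependent kinases, Cdkn2c was lower (-0.93, SE 0.24) and Cdkn1a, which encodes p21, was higher (0.40, SE 0.12), 2 genes named after their values were seen.

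The same comparison in T/NK cells, with 12.8% of all genes called and 6.55% called lower, called 9 of 28 other G2/M genes, among them Cdca3 (-1.03, SE 0.22), Cdca8, Cks1b, Ckap2, Cks2 and Smc2, all lower, and 2 of 28 other S genes, with Prim1 first (-0.77, SE 0.16). The counts of S and G1 genes lie near or below the share of all genes. Of 20 G1 genes E2f7 was lower and Ccnd3 higher, and of 5 inhibitor genes Cdkn2c (-1.14, SE 0.22) and Cdkn2d (-0.74, SE 0.15) were lower. Between classes, Cdk6 was the 1 gene of 21 called in macrophages, lower in responder strains (-0.35, SE 0.09, edgeR adjusted p = 0.0178), beside 6.56% of all genes called there, so that the count is not above the background. For T/NK cells edgeR called 0 between classes, where 3 of 27 other S genes, 4 of 15 G1 genes and 3 of 5 inhibitor genes had an unadjusted p under 0.05, beside 14.5% of all genes. The aPD1 comparisons called 0 of these genes by edgeR, beside at most 0.0139% of all genes. Up to 2 of a list had an unadjusted edgeR p under 0.05. Beside them, in responder strains, stood 6.91% of all genes in macrophages and 2.98% in T/NK cells. DESeq2 was not read for these lists. Among hosts, macrophages had 16 of 30 other S genes, 26 of 32 other G2/M genes, 11 of 21 G1 genes and 6 of 7 inhibitor genes called, led by Cdkn2d, Incenp, Knl1, Smc4 and E2f2, beside 51.7% of all genes, so that the S and G1 counts lie near the background. T/NK cells had 1 of 28, 1 of 28, 8 of 20 and 2 of 5, beside 25.3% of all genes, and the 8 were Cdk4, Cdk6, Rbl2, Ccnd3, E2f4, E2f3, Ccnd2 and Ccnd1. With pool as a replicate block the shares of all genes called among hosts were 13.0% and 7.44%, and these lists were not counted in that fit.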

How the data were processed

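The authors aligned 5′ single-cell RNA-seq reads with Cell Ranger to GRCm38, assigned hashtags to tumors, filtered cells on mitochondrial and ribosomal content, and deposited raw UMI counts per gene and cell with cluster numbers (Seurat 5.0.1). They regressed out cell cycle phase before clustering and integrated over processing date. Clusters were named from marker lists. Counts were summed per tumor and cell population (at least 20 cells) and fitted with edgeR 4.0.16 (TMM, quasi-likelihood; DESeq2 1.42.0 as an alternative; limma 3.58.1 with voom for pool as a random block), adjusted over all genes, and the fit was tested on simulated data. Shares used cells thinned to 1000 UMIs (seed 20240). Depth was 88816 to 17713491 UMIs per tumor, and intervals cover counting error only. The response class is the study's, not the labels'. For the counts of pairs, isotype and aPD1 tumors of a strain were paired by their pool, since a pool is 1 library. The main fits had no term for pairs. Deviations from group means correlated above 0.1 in 18 of 19 pairs in macrophages and 17 of 19 in T/NK cells over all genes tested. Over the members alone they did so in 12 of 19 in each. The 40 members, the gene lists and the marker lists were chosen with earlier results of these data known. Named were every member called in a comparison, 6 members with values in every group (Mki67, Top2a, Ube2c, Mcm5, Pcna and Stmn1), the 3 highest and 3 lowest by level, the 10 genes most like the summed G2/M members, and up to 10 other cell cycle genes called per comparison. Leaving out cells of the top 2% of UMIs stood in for a doublet caller. Promoters came from RefSeq (GRCm38.p6). Tables of hashtag sequences were not used.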

Additional observations from a re-analysis of the deposited data

Results flagged for a closer look

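Of 92 groups of 4 to 10 tumors examined, chance alone would set about 1 in 20 apart, and 3 stood apart by the gap between their extreme tumor and the next. In T/NK cells of non-responder aPD1 tumors, Mki67 was highest at 295.2 CPM in the CC079 tumor of pool 5, with the next of 9 at 179.0 and a median of 145.1. In the same group Mcm5 was lowest at 10.49 CPM in the CC079 tumor of pool 1, with the next at 41.25 and a median of 55.53. That tumor had 29 T/NK cells, and 10.49 CPM is the worth of 1 UMI there. In T/NK cells of responder aPD1 tumors, Top2a was lowest at 80.15 CPM in the CC075 tumor of pool 10, with the next of 10 at 182.3 and a median of 205.2.

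The S-positive share of macrophages moved in opposite directions under aPD1 in 2 strains. It was higher in 3 of 3 CC079 pairs, by a mean of 1.601 percentage points (0.134 to 4.01), and lower in 3 of 3 CC075 pairs, at a mean of -2.986 points (-6.47 to -0.707). This share and these 2 strains were picked for the pattern, from the G2/M-positive and S-positive shares of both populations over all strains with at least 3 pairs. With 3 pairs, the same sign in all arises readily by chance. The difference between the strains was not tested.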

How the results depend on the processing

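The differences between host strains depended on how pools were treated, and in T/NK cells also on the filter on low counts. In macrophages 32 members were called, 1 with pool as a replicate block, 4 with the set of pools as a term, 2 in pools 1 to 6 alone, 0 in pools 7 to 12 alone, and 19 to 38 when 1 pool was left out. In T/NK cells 5 were called, 19 without a filter on low counts, 2 with pool as a replicate block, 2 without cluster 1, 1 with the set of pools as a term, 3 in pools 1 to 6 alone, 0 in pools 7 to 12 alone, and 0 to 23 when 1 pool was left out. The T/NK fits without the filter, without cluster 1 and within a set of pools are given without the share of all genes called. The same holds for the 19 to 38 calls in macrophages with 1 pool left out. These counts are therefore not read against a background. The comparison of the sets of pools gave 0 to 38 calls in macrophages and 0 to 22 in T/NK cells when 1 pool was left out. It gave 27 and 17 in the fit over tumors, 12 and 16 with pool as a random replicate block, and 39 and 11 with counts summed per pool. The highest counts with 1 pool left out, 38 and 22, are given without the share of all genes called. They too are not read against a background. Leaving out 1 strain gave 0 to 2 calls between classes in T/NK cells. The replicate block changed no other count of member calls. By total count alone, genes called between classes in macrophages went from 487 higher and 292 lower to 339 and 528, while member calls stayed at 0, and in T/NK cells from 67 and 94 to 49 and 130. For the sets of pools the same scaling moved all genes called from 685 higher and 566 lower to 492 and 784 in macrophages, and from 530 and 554 to 670 and 404 in T/NK cells, with 29 and 15 members called. Cluster 1 could not be fitted at 20 cells per tumor, so its replicate block was not run. Differences between groups in shares of positive cells moved by less than 1 pooled SD of tumors under every alternative run. That SD was 4.09 to 5.40 points, wider than most of these differences, so that it is a weak limit. The responder minus non-responder difference of S-positive macrophages under aPD1 (-4.34 points) ran from -8.41 to -2.11. Small differences changed sign. The responder minus non-responder difference of G2/M-positive macrophages in isotype tumors (0.092 points) ran from -1.36 to 1.96. It had the other sign in 5 of 15 settings. The shares themselves depended on thinning, and the G2/M-positive share of cluster 26 was 33.2% without it, against 14.5%. The sets of pools, the term for them, the random block, the sums per pool and the fits without cluster 1, 5, 8 or 17 were chosen after seeing the data. Why the counts change was not tested.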
